A study of Mus musculus with 30 samples.

Results

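The regions described here are stretches of open chromatin that were listed at all 4 stages of mouse spermatogenesis examined. Peaks of the 4 stages on chromosomes 1 to 19 were joined into union regions where they overlapped by at least 1 bp, and a union region holding at least 1 peak of each stage was counted as common to all stages. This rule was met by 3187 of 113894 union regions, or 2.80% (95% Wilson interval 2.70 to 2.90). The rule used presence in each list, so presence, width and strength in the lists describe these regions and are not tested.

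Male germ cells of C57BL/6 mice were profiled by ATAC-seq, in which the transposase Tn5 cuts accessible DNA and the fragments are sequenced. The stages were primitive type A spermatogonia from day 6 pups (PriSG-A, 3 libraries), type A spermatogonia from day 8 pups (SG-A, 3 libraries), pachytene spermatocytes (pacSC, adult, 2 libraries) and round spermatids (rST, adult, 2 libraries). All cells came from testes of 1 strain, with no mutation or treatment named. Each stage was deposited as 1 peak list for all its libraries, so spread between replicates cannot be measured, and every interval below covers counting error over regions only.

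Spermatogonia are the dividing cells at the base of the seminiferous tubule, and they include the stem cells of the male germ line. Pachytene spermatocytes are in meiotic prophase with paired homologous chromosomes. Round spermatids are haploid and still carry most of their DNA on nucleosomes, before protamines replace histones in elongating spermatids. DNA that is accessible in many cell types often lies at promoters of broadly expressed genes or at sites bound by CTCF, and repeated sequence can also collect reads at every stage. Which of these classes the common regions belong to was not determined, because no sequence or gene annotation on the assembly of the peak positions was used here. Purity of the cell preparations could not be checked from peak lists either, since these hold no marker genes.

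The common regions were a small part of the spermatogonial lists and most of the spermatid list. They held 4272 of 54413 autosomal PriSG-A peaks (7.85%), 3383 of 85773 SG-A peaks (3.94%), 4260 of 32902 pacSC peaks (12.9%) and 4296 of 6233 rST peaks (68.9%, 95% interval 67.8 to 70.1). Their share of the summed signal value, the authors' area over a peak, was larger, at 37.7% at PriSG-A, 30.1% at SG-A, 45.7% at pacSC and 87.4% at rST. A region missing from 1 list only was missing from PriSG-A in 100 cases, from SG-A in 70, from pacSC in 137 and from rST in 8790. In all, 11977 union regions were in the first 3 lists, and 3187 of these (26.6%, 25.8 to 27.4) were in the rST list too.

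The joining rule rarely produced chains of peaks with no shared base. A stretch listed at all 4 stages was present in 3142 of the 3187 regions (98.6%, 98.1 to 98.9), and it was at least 100 bp long in 2690 (84.4%). Its median length over the 3142 regions was 268 bp (259 to 277). Positions here are on the deposited assembly, converted to 1-based. The processing notes name mm10, but the peaks run past the last GRCm38 gene on 10 of 19 autosomes, so the assembly is not settled. At the edge of the rule, the region on chromosome 1 at 45388791 to 45389091 was joined by 17 bp of overlap between its pacSC peak and the others, and held no base common to all 4. On chromosome 10 at 92915374 to 92916942 the joining peak was an rST peak of 48 bp, and an rST peak of 49 bp joined the one on chromosome 13 at 84486804 to 84489488. Just outside the rule, the region on chromosome 16 at 48072216 to 48072389 was listed at SG-A, pacSC and rST and lay 26 bp from a PriSG-A peak. The region on chromosome 8 at 61178681 to 61180186 missed an SG-A peak by 30 bp, and that on chromosome 4 at 72513363 to 72513818 missed a PriSG-A peak by 46 bp. Near misses of this kind were rare among the 8790 regions that lacked only rST: none lay within 100 bp of an rST peak, 53 lay within 1000 bp, and the median distance was 198160 bp.

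Within the same regions the listed width differed by stage. The median width was 1212 bp at PriSG-A (1194 to 1233), 1596 bp at SG-A (1576 to 1616), 918 bp at pacSC (900 to 933) and 285 bp at rST (275 to 296), where the width of a stage sums its peaks inside a region. For all autosomal peaks the medians were 207, 179, 188 and 183 bp in the same order. The common regions were thus far wider than the list they came from at the first 3 stages, and closer to it at rST. SG-A was the widest stage in 2641 regions (82.9%) and rST the narrowest in 2894 (90.8%). SG-A was wider than PriSG-A, PriSG-A than pacSC and pacSC than rST in 2039 regions (64.0%), while pacSC was wider than PriSG-A in 761 (23.9%).

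**Figure D1:**
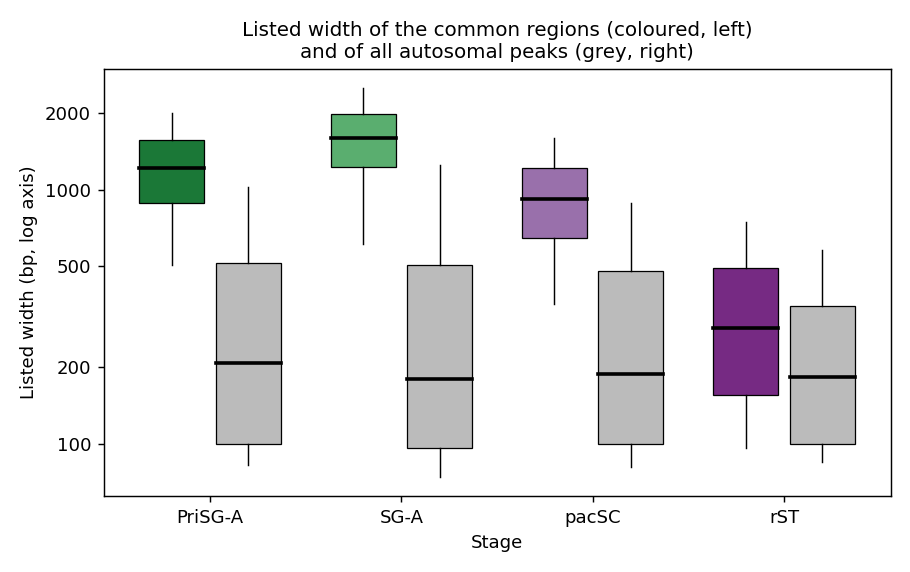
Listed width in bp (log axis) of the 3187 common regions (coloured, left of each pair) and of all autosomal peaks of the same list (grey, right) at each stage. Boxes run from the 25th to the 75th percentile, the thick line is the median and whiskers reach the 10th and 90th percentiles. The common regions have medians of 1212, 1596, 918 and 285 bp along the stages, against 179 to 207 bp for all peaks.

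Region by region, the median rST width was 0.195 times the SG-A width (0.189 to 0.204) and 0.348 times the pacSC width (0.338 to 0.364). The pacSC width was 0.617 times the SG-A width (0.607 to 0.627), and the SG-A width was 1.25 times the PriSG-A width (1.24 to 1.27). The depth of sequencing behind each list is unknown, and a caller can list a narrower stretch at lower depth. In a population of cells, fewer cells with a region open and less access per cell cannot be told apart either.

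The step from pacSC to rST was examined with a fixed fold, a listed width at most 0.5 times that of the earlier stage. This was reached by 2137 of the 3187 common regions (67.1%, 65.4 to 68.7), against 56.6% of all 4406 union regions listed in both pacSC and rST. Among the 1219 of these that were not common to all stages it was reached by 355 (29.1%). Starting width differs between these sets, so the comparison was repeated by pacSC width, a split chosen after the values were seen. For pacSC widths from 500 to below 1000 bp, 71.0% of 1344 common regions (68.5 to 73.3) narrowed by that fold, against 49.4% of 265 others (43.5 to 55.4). This was the only one of 4 width classes in which the intervals did not overlap. Below 250 bp the shares were 9.09% of 176 common regions (5.67 to 14.3) and 8.33% of 504 others (6.22 to 11.1). From 250 to below 500 bp they were 43.9% of 330 (38.7 to 49.3) and 35.2% of 372 (30.5 to 40.2), and from 1000 bp they were 76.4% of 1337 (74.1 to 78.6) and 65.4% of 78 (54.3 to 75). A listed width at least 2 times larger at rST was found in 58 common regions (1.82%), against 2.09% of all regions in both lists.

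Narrowing was less frequent at the step into meiosis. A pacSC width at most 0.5 times the SG-A width was found in 968 common regions (30.4%, 28.8 to 32.0), against 47.2% of the 13805 union regions listed in both. A pacSC width at least 2 times the SG-A width was found in 51 (1.60%), against 5.03%. Between the spermatogonial stages, 162 common regions (5.08%) were at least 2 times wider at SG-A than at PriSG-A, against 25.2% of the 30643 regions in both lists, and 29 (0.910%) were at most 0.5 times as wide, against 5.71%.

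Signal value per bp, the authors' area over a peak divided by its listed width, was treated with the same fold. It was at most 0.5 times as high at rST as at pacSC in 2279 common regions (71.5%), against 61.3% of all regions listed in both, and at least 2 times as high in 50 (1.57%), against 2.59%. For pacSC against SG-A, 2001 (62.8%) reached the lower fold, close to the 61.0% of all regions, and 63 (1.98%) the upper, against 5.29%. For SG-A against PriSG-A, 19 (0.596%) reached the lower fold, against 3.67%, and 1868 (58.6%) the upper, against 52.1%. The share that fell between SG-A and pacSC was thus near the background for signal value per bp, while for width it was below it.

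What remained at rST lay in the middle of the earlier region. In the 1407 common regions with exactly 1 peak at each stage, the rST peak lay wholly inside the SG-A peak in 1324 (94.1%, 92.7 to 95.2), inside the pacSC peak in 1260 (89.6%) and inside the PriSG-A peak in 1263 (89.8%). The midpoint of the rST peak had 10th and 90th percentiles of 34.1% and 64.7% of the length of the SG-A peak. Its median was 50.0% (49.7 to 50.5), which the symmetry of left and right favours wherever the peak lies. The SG-A summit, the base of highest signal in the peak, lay inside the rST peak in 1135 of them (80.7%, 78.5 to 82.6). Complete nesting of the rST peak within the pacSC one, that within the PriSG-A one and that within the SG-A one was seen in 524 (37.2%).

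Around the SG-A summit, the share of all 3187 regions with a listed base fell with distance at every stage, and fastest at rST. At the summit itself 98.8% of regions were listed at PriSG-A, 97.0% at pacSC and 78.9% at rST. At 250 bp upstream in coordinate the shares were 86.1% at PriSG-A, 90.8% at SG-A, 73.7% at pacSC and 27.2% at rST. At 500 bp they were 60.5%, 78.9%, 40.1% and 8.38% in the same order. The opposite side gave 61.5%, 79.4%, 42.6% and 8.63% at 500 bp, so both sides differed by under 3 percentage points at these distances.

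**Figure D2:**
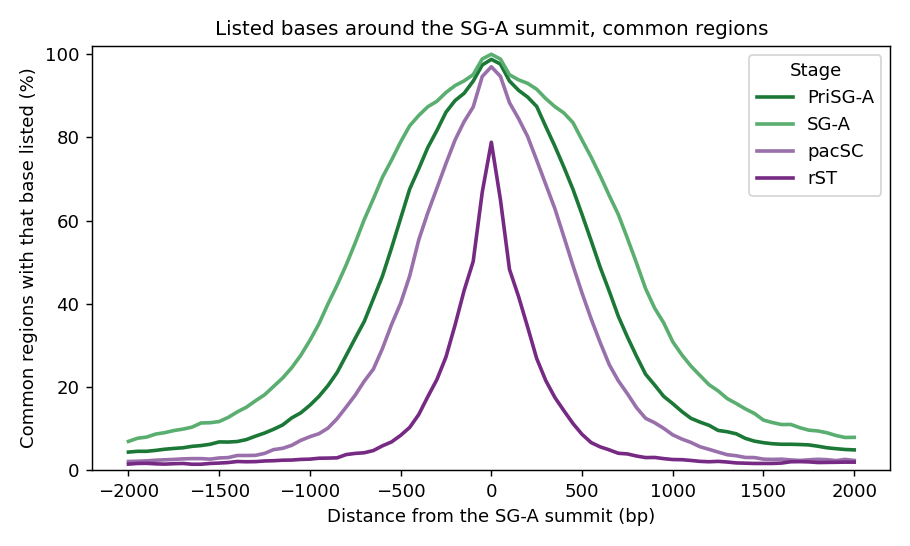
Share of the 3187 common regions (%) with a base listed at each stage, by distance in bp from the SG-A summit, in steps of 50 bp from 2000 bp before it to 2000 bp after it. All 4 curves peak at the summit and are close to symmetrical. The rST curve reaches 78.9% at the summit and falls to 27.2% at 250 bp before it.

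Summits of different stages lay close together. The median distance between the rST and pacSC summits was 50.0 bp (47 to 55), and 2053 of 3187 pairs (64.4%, 62.7 to 66.1) were within 100 bp. For rST against SG-A the median was 70 bp (67 to 74) with 60.6% within 100 bp (58.9 to 62.3), and for SG-A against PriSG-A it was 39 bp (36 to 44) with 66.8% (65.1 to 68.4). The widest typical separations were rST against PriSG-A, at 75 bp, and pacSC against PriSG-A, at 73 bp. All 4 summits fell within 100 bp of each other in 1019 regions (32.0%, 30.4 to 33.6), and were spread over more than 500 bp in 318 (9.98%).

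The distance between summits was small relative to the peaks. In the regions with 1 peak per stage, the rST summit lay a median of 57 bp (52 to 63) from the SG-A summit and 116 bp (108.5 to 124) from the midpoint of the SG-A peak. It was nearer to the summit than to the midpoint in 902 of 1407 (64.1%, 61.6 to 66.6). The same distances were measured in regions listed in both stages of a pair but not in all 4. For rST against pacSC these 1219 regions had a median of 24 bp (22 to 27) and 78.8% within 100 bp (76.5 to 81.0), closer than the common regions, and they were also narrower, with a median pacSC width of 290 bp in the 1049 of them listed at no spermatogonial stage. For SG-A against PriSG-A, 63.3% of 27456 other regions were within 100 bp (62.7 to 63.9), against 66.8% of common regions.

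Strength was compared as signal value per bp of listed width, because the authors' signal value is an area that grows with width. Its median in the common regions was 1.77 at PriSG-A (1.74 to 1.8), 3.94 at SG-A (3.87 to 3.98), 1.597 at pacSC (1.568 to 1.633) and 0.484 at rST (0.471 to 0.496). All autosomal peaks had medians of 0.503, 0.601, 0.580 and 0.451. How the authors scaled the signal value to depth is not given, so each value was also ranked within its own list. The median common region stood at percentile 93.7 of PriSG-A (93.4 to 94.0), 96.7 of SG-A (96.5 to 96.8), 89.6 of pacSC (89.1 to 90.1) and 54.3 of rST (52.6 to 56.4). The common regions hold 68.9% of the rST peaks, so their ranks there centre near the middle by construction, and ranks are not read as a change between lists.

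The order of regions by width was most alike between the spermatogonial lists and least alike between rST and SG-A. Spearman's rho of width over the 3187 regions was 0.86 for SG-A against PriSG-A, 0.59 for pacSC against SG-A, 0.37 for rST against pacSC and 0.25 for rST against SG-A. For signal value per bp it was 0.77, 0.44, 0.28 and 0.19. These are descriptions across regions that share libraries within a stage.

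A −log10 q of at least 5, a stringent call on the authors' own q-values, was reached at PriSG-A by 2240 common regions (70.3%, 68.7 to 71.8), against 9.40% of all autosomal peaks. At SG-A it was reached by 2976 (93.4%, 92.5 to 94.2), against 18.2%, and at pacSC by 1766 (55.4%, 53.7 to 57.1), against 10.8%. At rST only 145 reached it (4.55%, 3.88 to 5.33), against 2.82% of that list. A common region was counted by its highest −log10 q at a stage, while the background counts single peaks. Counted like the common regions, the 8790 regions missing only from rST reached the call in 26.3% at PriSG-A, 79.5% at SG-A and 15.3% at pacSC. More than 1 peak was held by 26.2% of common regions at PriSG-A, 4.99% at SG-A, 24.1% at pacSC and 26.1% at rST. Since the rule selects listed regions, these shares are descriptions of the set.

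The common regions were grouped by where that call was reached. It was reached at PriSG-A, SG-A and pacSC but not rST by 1302 regions (40.9%), in both spermatogonial lists only by 806 (25.3%), at SG-A only by 439 (13.8%), in no list by 157 (4.93%) and in all 4 lists by 115 (3.61%). The remaining 368 (11.5%) had other combinations. This grouping was made after the values were seen. Shares of these combinations over all union regions are not given, so the counts are not read as particular to the common regions. A call at a stage favours wide and strong peaks there, so the grouping itself bears on the widths and ranks below, which are given as a description of each group only.

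The 115 regions strong in all 4 lists were selected for a strong rST peak. Their median width was 1150 bp at PriSG-A (828 to 1514), 1248 bp at SG-A (879 to 1719), 1010 bp at pacSC (838 to 1219) and 834 bp at rST (645 to 925). The median rST width was 0.827 times that of SG-A (0.737 to 0.918), against 0.189 (0.183 to 0.195) in the other 3072 common regions. The rST width was at least 0.9 times the SG-A width in 51 of the 115 and in 140 of the 3072. Their median percentile was 99.8 at PriSG-A, 99.9 at SG-A, 99.4 at pacSC and 98.7 at rST. The rST and SG-A summits were within 100 bp in 73.9% (65.2 to 81.1), against 60.1% (58.3 to 61.8) of the others. All 6 common regions whose 4 summits fell on a single base were among them.

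The 1302 regions strong until pacSC were selected for having the call at pacSC and lacking it at rST. Their median width was 1360.5 bp at PriSG-A, 1762.5 bp at SG-A, 1131.5 bp at pacSC and 364.5 bp at rST, and their median percentile was 96.1, 98.1, 95 and 63.2 along the same stages. The 806 regions strong in spermatogonia only were as wide at first, at 1323.5 bp at PriSG-A and 1694.5 bp at SG-A, and had 765.5 bp at pacSC, where the call was lacking by definition, and 246 bp at rST. Their percentile was 77.6 at pacSC and 44.2 at rST. The 157 regions strong in no list were narrow throughout, at 351, 361, 326 and 194 bp.

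**Figure D3:**
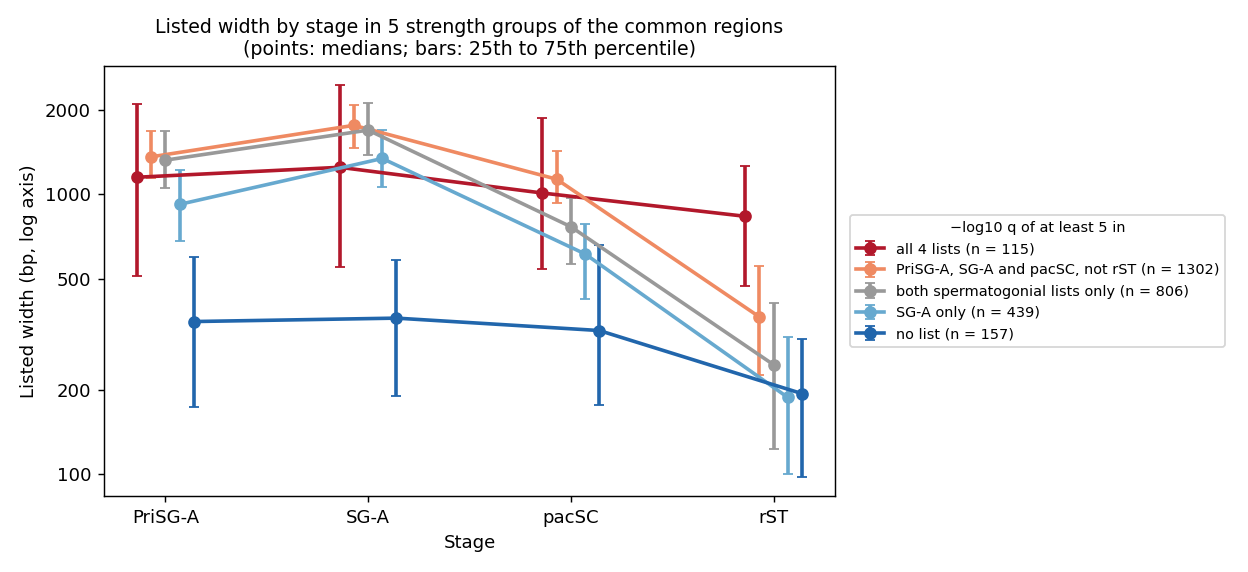
Median listed width in bp (log axis) by stage for 5 groups of common regions, by the lists in which a −log10 q of at least 5 was reached. Bars run from the 25th to the 75th percentile of regions. The 115 regions strong in all lists (red) have a median of 834 bp at rST, and the 3 groups with the call at SG-A but not at rST have medians between 188 and 364.5 bp there, as the grouping favours.

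The regions of highest signal value at rST belonged to the strong set and were far wider than the rest. A region on chromosome 9 at 3005573 to 3038390 had signal values of 467592 at PriSG-A, 674718 at SG-A, 269008 at pacSC and 156140 at rST. Its 4 summits fell on 1 base, at 3024565, and its listed width was 32793, 32818, 32297 and 29959 bp along the stages, in 14 peaks at rST. A region on chromosome 1 at 24618314 to 24623073 had the highest signal value per bp in every list, at 43.1, 56.6, 41.4 and 29.8, over widths of 4759, 4750, 4760 and 4748 bp. A region on chromosome 17 at 39979875 to 39985839 had 17.2, 31.4, 9.96 and 9.58 per bp, with widths between 5942 and 5965 bp.

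Others of this kind lay at the low-coordinate, centromeric chromosome ends. A region on chromosome 9 at 2999936 to 3005447 had signal values per bp of 19.8, 28.9, 13.1 and 9.27, and one on chromosome 11 at 3026823 to 3048932 had 6.34, 8.83, 7.24 and 2.85. A second wide region on chromosome 11, at 3052095 to 3080456, spanned 28362 bp at SG-A and 27440 bp at rST. Copy number of the sequence under these regions was not examined, so its part in their signal was not tested. Without the 33 regions over 5000 bp and those in windows of at least 20, the median rST to SG-A width ratio was 0.193 and the median rST percentile 54.1, both inside the intervals of the full set; the other medians were not recomputed.

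Compact regions with 1 summit position at all stages were also found. On chromosome 2 at 98502333 to 98503204 the summit was at base 98502717 in every list, with widths of 867, 872, 857 and 856 bp. On chromosome 9 at 35112745 to 35113244 it was at 35112896, with signal values per bp of 29.8, 43.3, 23.6 and 18.95. On chromosome 12 at 3109806 to 3110181 it was at 3109919, with 31.2, 44.8, 24.3 and 20.2. The region on chromosome 2 at 57481846 to 57482199 had its summit at 57481951 and differed from these in its order of strength. Its signal value per bp was 5.90 at PriSG-A, 11.1 at SG-A, 14.1 at pacSC and 7.05 at rST, highest at pacSC.

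The widest regions of chromosome 1 followed another course. The region at 85265622 to 85285620 was listed over 19853 bp at PriSG-A, 19706 bp at SG-A, 2031 bp in 11 short peaks at pacSC, and 13259 bp in 12 peaks at rST. Its signal value per bp was 1.79, 2.39, 0.356 and 0.788 along the stages. The neighbouring region at 85239617 to 85259228 was listed over 18608, 19502, 328 and 11208 bp, with signal values per bp of 1.45, 1.88, 0.324 and 0.542. Both were listed over far fewer bases at the pachytene stage than before and after it.

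At the other extreme, some wide spermatogonial regions were listed over only a sliver at rST. On chromosome 10 at 5912884 to 5914726 the widths were 951, 1843, 1155 and 60 bp, and the 4 summits lay within 8 bp. On chromosome 3 at 145310381 to 145314039 they were 1158, 3659, 383 and 122 bp. On chromosome 10 at 79228929 to 79231420 they were 1606, 2492, 889 and 84 bp, on chromosome 15 at 6657303 to 6659721 they were 2230, 2419, 1854 and 83 bp, and on chromosome 5 at 38610863 to 38612403 they were 1276, 1537, 349 and 53 bp. These were the 5 lowest ratios of rST to SG-A width among regions with 1 peak per stage, from 0.0326 to 0.0345. These 5 regions had rST signal values of 27.4, 37.5, 22.1, 26.2 and 22.5 in the same order, near the lowest value of that list, 20.0. The region whose rank within the rST list lay farthest below its rank within the SG-A list was on chromosome 8 at 13104321 to 13106699, with a signal value per bp of 0.0584 at rST and 5.11 at SG-A. The next, on chromosome 7 at 6314638 to 6316590, had 0.112 per bp at rST and 6.53 at SG-A. The rST signal values of the chromosome 8 and chromosome 7 regions were 20.4 and 35.4, also low in that list.

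A few regions were broader at rST than at SG-A. There were 84 of these (2.64%, 2.13 to 3.25), and among those with 1 peak per stage, the 5 of largest ratio had their highest signal value per bp at pacSC. On chromosome 16 at 84246867 to 84248125 the width was 172 bp at PriSG-A, 96 bp at SG-A, 1259 bp at pacSC and 486 bp at rST. On chromosome 14 at 124385885 to 124386950 it was 182, 109, 1066 and 414 bp, with all summits within 51 bp. On chromosome 14 at 108611686 to 108612290 it was 222, 81, 605 and 278 bp. The largest ratio, 9.68 on chromosome 2 at 54687814 to 54688879, rested on an SG-A peak of 65 bp that shared no base with all the other stages; the chromosome 16 region had no common base either. The rank within the rST list lay farthest above that within the SG-A list on chromosome 1 at 151856253 to 151856617, with a signal value per bp of 0.784 at rST and 0.209 at SG-A. The next, on chromosome 11 at 28634974 to 28635504, had 0.738 per bp at rST and 0.197 at SG-A.

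The closest comparison set was the 8790 regions listed at PriSG-A, SG-A and pacSC but not at rST. In the lists that both sets share, the common regions were wider. Their median widths were 1212 bp against 807.5 bp (796 to 820) at PriSG-A, 1596 bp against 1235 bp (1222 to 1248) at SG-A, and 918 bp against 472 bp (459 to 481) at pacSC. The median percentiles were 93.7 against 80 at PriSG-A, 96.7 against 90.3 at SG-A, and 89.6 against 63.5 at pacSC. The median pacSC to SG-A ratio of width was 0.617 (0.607 to 0.627) in the common regions, against 0.432 (0.423 to 0.441), and that of signal value per bp was 0.426 (0.417 to 0.437), against 0.343 (0.337 to 0.348). The intervals do not overlap in any of these comparisons, and with 1 list per stage no test over samples exists.

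Ranking all 11977 regions of the first 3 lists by earlier signal value per bp gave a gradient. By SG-A signal value per bp, the share also listed at rST was 9.77% in the lowest quintile (8.64 to 11), 11.5%, 18.4% and 33.0% in the next 3, and 60.4% in the highest (58.4 to 62.3). By pacSC the lowest and highest quintiles gave 6.97% (6.02 to 8.06) and 59.2% (57.2 to 61.2), and by PriSG-A 6.93% and 58.4%. Of the 1107 regions in the highest quintile of both SG-A and pacSC, 876 (79.1%, 76.6 to 81.4) were common to all stages, and of the 866 in the lowest of both, 51 (5.89%, 4.51 to 7.66).

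**Figure D4:**
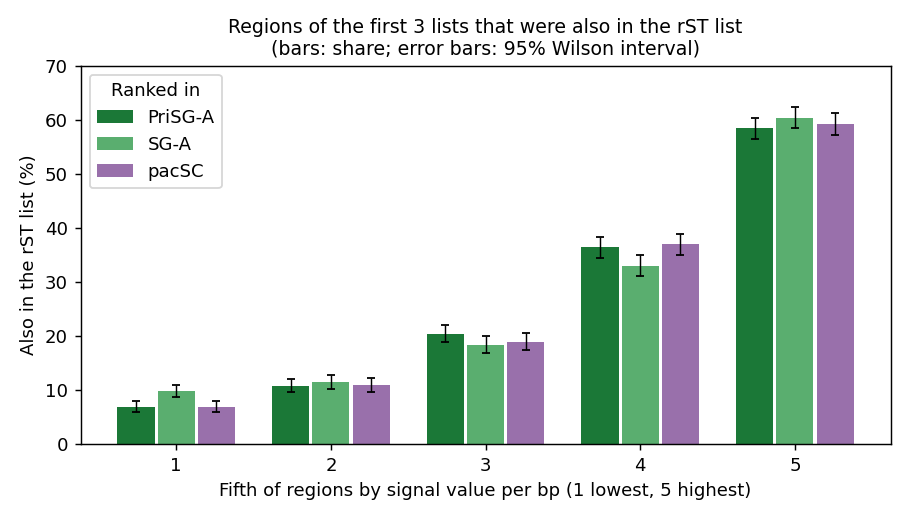
Share (%) of the 11977 regions of the first 3 lists that were also in the rST list, by quintile of signal value per bp at PriSG-A, SG-A or pacSC. Error bars are 95% Wilson intervals. The share rises from between 6.93% and 9.77% in the lowest quintile to between 58.4% and 60.4% in the highest.

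Position along the chromosome was not used by the rule. The common regions were spread over all 19 autosomes, at 0.944 (chromosome 7) to 1.61 (chromosome 10) regions per Mb. Of the regions of the first 3 lists, the share also at rST was highest on chromosome 3, at 41.9% (37.9 to 45.9), and chromosome 1, at 41.2% (37.6 to 45.0), and lowest on chromosome 11, at 16.6% (14.1 to 19.4), and chromosome 7, at 17.3% (14.9 to 20.1). The 1516 windows of 1 Mb that held a common region had a median of 2. The densest were chromosome 5 at 15000001 to 16000000 with 30, chromosome 8 at 19000001 to 20000000 with 22, and chromosome 5 at 14000001 to 15000000 with 19. In the first of these, 30 of the 32 regions of the first 3 lists were also at rST.

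The median distance from a common region to the nearest other one was 167 kb (155 to 177), and 232 (7.28%) had none within 1 Mb. Another common region lay within 10 kb of 260 of them (8.16%), against 242 (2.75%) of the regions missing only from rST. How many peaks lay around them depended on the list counted. The median number of other SG-A peaks within 500 kb was 41 (40 to 42), against 54 (53 to 54), and of other pacSC peaks 12 (12 to 13), against 16. Of other rST peaks it was 3, against 2, so the common regions had fewer SG-A and pacSC neighbours and more rST neighbours than the regions missing only from rST.

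A low number of SG-A peaks in the surroundings went with presence at rST in the 4 upper quintiles of strength, a pattern examined after the values were seen. Among regions of the first 3 lists, 38.2% (36.3 to 40.2) of the quintile with fewest SG-A peaks within 500 kb were in the rST list, against 16.4% (15.0 to 18.0) of the quintile with most. The median SG-A signal value per bp was 2.44 (2.31 to 2.54) in the quintile with fewest and 2.90 (2.84 to 2.98) in the quintile with most. In the highest quintile of SG-A signal value per bp, the share at rST was 79.4% (75.3 to 83) with sparse and 39.4% (34.7 to 44.2) with crowded surroundings. In the next quintile it was 59.7% (54.4 to 64.7) and 15.7% (12.8 to 19.1). Only in the lowest quintile did the intervals overlap, at 15.3% (13.0 to 18.0) and 11.1% (8.26 to 14.9).

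With strength and crowding both measured at pacSC, the shares were 81.3% (77.1 to 84.9) against 38.3% (34.8 to 41.9) in the highest quintile, and 11.8% (9.30 to 15.0) against 11.1% (8.59 to 14.3) in the lowest. Of regions in the highest quintile of both SG-A and pacSC strength, 89.2% of 268 in sparse surroundings (84.9 to 92.4) and 60.9% of 133 in crowded surroundings (52.4 to 68.8) were at rST. The highest quintile of SG-A strength was also split at 50 SG-A peaks within 500 kb. The share at rST was higher with at most 50 than with more on 19 of 19 autosomes. The gap varied, from 82.8% against 56.9% on chromosome 3 and 58.6% against 25.0% on chromosome 7 to small gaps on others. It was 77.4% against 73.7% on chromosome 12 and 61.3% against 59.5% on chromosome 15. The smallest of these subsets held 17 regions. Neighbouring regions are not independent, so the intervals are narrower than the true uncertainty.

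**Figure D5:**
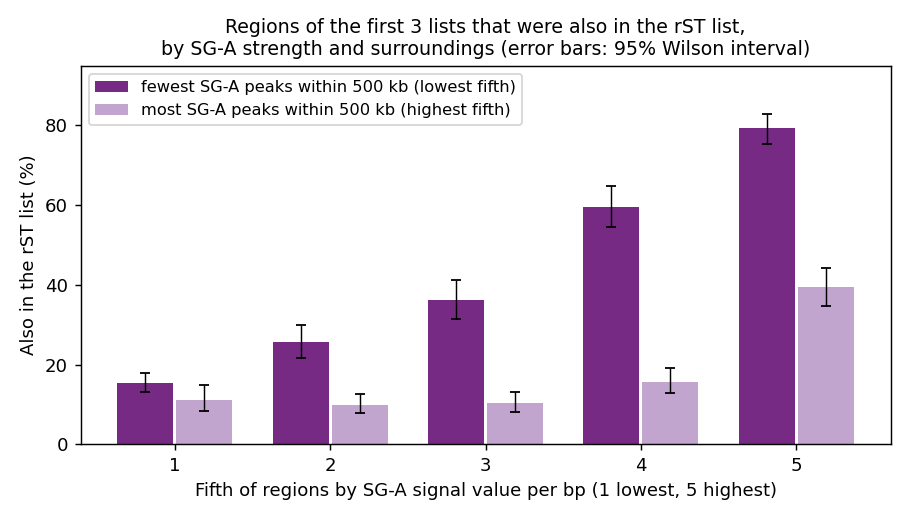
Share (%) of regions of the first 3 lists that were also in the rST list, by quintile of SG-A signal value per bp, for the quintile of regions with the fewest (dark, left) and the most (light, right) other SG-A peaks within 500 kb. Error bars are 95% Wilson intervals. In the highest strength quintile the shares are 79.4% and 39.4%.

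Distance from the distal chromosome end gave a weaker pattern before strength was matched, and afterwards it depended on the list and quintile used. The distal 10 Mb held 340 common regions (10.7%, 9.64 to 11.8), against 1359 (15.5%, 14.7 to 16.2) of the regions missing only from rST and 13.6% (13.4 to 13.8) of all other union regions. The share of common regions in the distal zone was below that of the regions missing only from rST on 15 of 19 autosomes. Among regions of the first 3 lists, 18.3% (14.0 to 23.6) in the last 1 Mb were also at rST, 25.7% (23.8 to 27.7) between 20 and 40 Mb from the last listed peak, and 30.8% (29.4 to 32.3) beyond 80 Mb. Within the highest quintile of pacSC strength the distal share at rST was lower, at 43.6% (39.8 to 47.4) against 65.1% (62.8 to 67.3) elsewhere. It was lower in every other quintile of pacSC strength too, for example 10.0% against 40.7% in the quintile below the highest. Within the highest quintile of SG-A strength it was higher, at 72.8% (66.5 to 78.3) against 59.2% (57.1 to 61.2). In the SG-A quintile below that the intervals overlapped, at 37.1% (31.3 to 43.2) against 32.6% (30.6 to 34.6). In the lower SG-A quintiles it was lower, at 13.0% against 19.2%, 5.80% against 12.5% and, in the lowest, 4.87% against 11.2%.

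Among the strength groups the distal share differed widely. It was 18.3% (12.3 to 26.3) of the 115 regions strong in all lists and 14.4% (12.6 to 16.4) of the 1302 strong until pacSC. It was 1.36% (0.764 to 2.43), or 11 regions, of the 806 strong in spermatogonia only. It was 3.64% (2.26 to 5.84) of the 439 strong at SG-A only, 7.64% (4.43 to 12.9) of the 157 strong in no list and 25.3% (21.1 to 30.0) of the 368 with other combinations. Among all 11977 regions of the first 3 lists, the median pacSC signal value per bp was 1.32 in the distal zone and 0.896 elsewhere. That of SG-A was 2.35 and 2.99. Grouping by calls at these stages therefore itself bears on the distal shares, and the shares of other regions with the same calls are not given.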

How the data were processed

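ATAC-seq peak lists of 4 stages were used, 1 deposited list per stage; the 8 Hi-C and 12 ChIP-seq and input samples were not analysed here. Per the labels, the libraries of each stage share 1 file, and the PriSG-A list, whose deposited name is garbled, was assigned from those labels. The submitters' processing notes list Bowtie2 2.2.5, SAMtools and Bowtie but not what each did. Not given in the sources used here: peak caller, Tn5 offset, depth and how replicates were combined. The notes name mm10, but peaks ran past the last GRCm38 gene on 10 of 19 autosomes, by up to 7.20 Mb. Positions are therefore given on the deposited assembly, converted to 1-based, and no gene or sequence was assigned.

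The deposited signal value is an area: the deposited score equalled 1000 times signal divided by width, capped at 1000, within 1 for 100% of peaks. The authors' lists start at a signal of 20.0, and their −log10 q is per peak. Other deposited columns used were peak start, end and summit offset.

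Merging, medians with binomial order-statistic intervals and Wilson intervals (95%) were computed in Python 3.11.15 with pandas 2.3.3, NumPy 2.4.6 and SciPy 1.17.1, and tested on simulated data. In a region with several peaks of a stage, widths and signal were summed and the summit was that of the peak of highest signal. Percentiles are among autosomal peaks of the same list. With 1 list per stage no test between stages was made. Members and lists were chosen with earlier results of these data known. Named regions were the 5 of highest rST signal, the 5 widest, and, among regions with 1 peak per stage, 5 at each extreme of the rST to SG-A width ratio and percentile difference and 5 of closest summits, with the edge cases of the rule and the densest windows. The crowding, strength group and width class splits came after seeing the values.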

Additional observations from a re-analysis of the deposited data

Results flagged for a closer look

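The rule covered chromosomes 1 to 19. In data outside it, 119 of 3181 union regions on the sex chromosomes were listed at all 4 stages (3.74%, 95% interval 3.14 to 4.46), against 2.80% (2.70 to 2.90) of the autosomal union regions. They are given because no comparison above used the sex chromosomes, and the difference was not tested. These were 101 of 3051 on X (3.31%, 2.73 to 4.01) and 18 of 130 on Y (13.8%, 8.94 to 20.8).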

How the results depend on the processing

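Of 48 alternative values over 8 results and 6 settings, 30 stayed within the interval of the reported value (counts within 1.5 times) and 18 moved. The reported values are 3187 regions, a median rST to SG-A width ratio of 0.195, a median rST percentile of 54.3, 60.6% of rST and SG-A summits within 100 bp, 98.6% with a base common to all stages, 4.55% with an rST −log10 q of at least 5, 67.1% at most 0.5 times as wide in rST as in pacSC, and 10.7% in the distal 10 Mb. Using only peaks whose −log10 q reached 5, 115 regions remained, with a width ratio of 0.820 and 73.9% of summits within 100 bp. Of these regions, 10.4% narrowed in rST, no longer a majority. The distal share was 18.3% (12.3 to 26.3). That interval holds the 15.5% of regions missing only from rST in the uncut lists, which the full set lies below. A common base and the rST call were then at 100%. A call at rST favours wide rST peaks, so this filter itself favoured a high width ratio and little narrowing. It cannot show where narrowing holds, and the cause of these shifts was not tested. With each list cut to its 6233 peaks of highest signal value, 1911 regions remained, with an rST percentile of 58.3, a common base in 99.8% and 70.9% narrowed. With exactly 1 peak per stage there were 1407 regions, a width ratio of 0.212, 66.8% of summits within 100 bp, 6.47% with the rST call and 63.4% narrowed. Requiring a common base, or a common stretch of at least 50% of the narrowest width, set that share to 100% by construction and moved nothing else; nor did leaving out wide and clustered regions. No paired analysis was possible because the libraries of a stage were deposited as a single list, and leaving out a replicate could not be done either. Unknown depth limits every comparison of width or strength between stages.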
